A study of Rattus norvegicus with 10 samples.

Results

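Complement component genes were followed in the messenger RNA of rat milk whey over lactation. They comprised the 3 chains of C1q (C1qa, C1qb and C1qc), its proteases C1r and C1s, C2, C3, and the alternative pathway factors B (Cfb) and D (Cfd). All non-control probes bearing one of these 9 gene names in the array files were taken, which gave 12 of 41012 probes, for 9 of the 35469 gene names on the array. The C1q chains had been picked because their signals were higher on later days in these same arrays, and the other members to ask whether they do likewise. The day values of the C1q chains are therefore given as a description, without a test. Milk came from 3 dams of the strain F344/N, numbered 1 to 3, each giving milk on d 2, d 9 and d 16 after birth of the litter, with 1 array per dam and day. Dams were kept from their litters before milking, received oxytocin and were milked under sevoflurane. Spinning and filtering had removed fat, cells and casein from the milk, which leaves the clear whey. Their serum of d 21 was represented by 1 array of mixed RNA, without a replicate. Every array received 100 ng of RNA, and signals therefore describe shares of the RNA and not amounts per volume of fluid.

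Complement is a set of blood proteins that mark microbes and debris for removal and can pierce membranes. In the classical pathway C1q, a bouquet-shaped protein with collagen-like stems and globular heads, binds antibody or damaged surfaces. C1r then activates itself and cuts C1s, C1s cuts C4 and C2, and C2 provides the catalytic part of the enzyme that cuts C3. In the alternative pathway factor B takes the place of C2, and factor D cuts factor B. Most of these proteins in blood come from the liver, while C1q is made chiefly by macrophages and related cells, and factor D, also called adipsin, by fat cells. Complement proteins are also found in milk.

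The probes that carry the C1q result are shown first, since each reads a short stretch of 1 chain. The 3 chain genes lie together on the minus strand of chromosome 5 in the probe coordinates, taken here as those of the rat build rn4. Positions were chr5:155662578-155662637 and chr5:155662767-155662826 for C1qa probes 1 and 2, chr5:155656638-155656697 and chr5:155658964-155659023 for C1qc probes 1 and 2, and chr5:155647536-155647595 for the single C1qb probe. Exon and untranslated region annotation of this build was not used here. Read from its first base, C1qc probe 2 carried a codon for glycine, GGN, at each 3rd codon, 7 of 7 times, the repeat of a collagen-like stem. Among the 41012 probes 5 (0.012%) had that repeat throughout. Capitals mark these glycine codons.
C1qa probe 1: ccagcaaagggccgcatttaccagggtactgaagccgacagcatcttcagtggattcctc
C1qa probe 2: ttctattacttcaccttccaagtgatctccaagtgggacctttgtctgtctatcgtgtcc
C1qc probe 1: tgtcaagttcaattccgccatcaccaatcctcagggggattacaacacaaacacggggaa
C1qc probe 2: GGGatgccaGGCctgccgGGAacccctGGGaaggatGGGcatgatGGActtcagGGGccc
Probes of different C1q chains shared no run longer than 7 bases, and no pair among the 63 pairs of probes of different members shared more than 8.

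The probes of C2 and factor B, which are homologous proteases encoded side by side on chromosome 20, are shown next. Whether either probe also matches the transcript of the other gene was not tested. C2 lay at chr20:4071504-4071563 and Cfb at chr20:4076976-4077119, both on the plus strand.
C2: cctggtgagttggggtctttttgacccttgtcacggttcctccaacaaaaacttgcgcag
Cfb: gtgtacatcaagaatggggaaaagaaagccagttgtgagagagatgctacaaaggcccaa
The probes of C1r and C1s are shown because whey gave no signal above background on them. C1r lay at chr4:160728630-160728689 on the plus strand and C1s probe 1 at chr4:160736725-160736784 on the minus strand.
C1r: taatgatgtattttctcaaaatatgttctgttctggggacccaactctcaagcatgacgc
C1s probe 1: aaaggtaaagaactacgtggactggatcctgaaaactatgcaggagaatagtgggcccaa
C3 lay at chrUn:64513437-64513496 and Cfd at chr7:11325547-11325604, both on the minus strand.

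The arrays differed in overall brightness. The 75th percentile of the signal ran from 12.5 to 83.2 over the 9 whey arrays and was 4.11 on the serum array. Values below are log2 of the processed signal after quantile normalization over the 10 arrays, unless a sentence names another scale. A probe counted as detected when it stood well above background with a signal over 20 on at least 1 whey array. Of 41012 probes, 16848 were detected in whey and tested, and 9 of the 12 complement probes were among them. The arrays lay on 3 slides: d 2 of dams 1 and 2 on slide 1, d 2 of dam 3 with all d 9 arrays on slide 2, and all d 16 arrays with serum on slide 3. Whey RNA carried mammary transcripts, with a summed signal of 10 mammary markers between 1.03e+06 and 1.40e+06 on the whey arrays against 7916 in serum. In RNA of whey freed of cells, more cells releasing RNA, more of a transcript per cell and more release per cell cannot be told apart.

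All 3 C1q chains were higher on each later day. C1qb, the only chain well above background on all 9 whey arrays, had log2 signals of 5.02, 4.79 and 5.43 in d 2 whey of dams 1, 2 and 3. On d 9 it had 8.17, 7.33 and 6.39, and on d 16 8.86, 8.60 and 8.86. The days did not overlap, and d 9 showed the widest spread among dams. The mean was 5.08 ± 0.33 (SD, n = 3) on d 2, 7.30 ± 0.89 on d 9 and 8.77 ± 0.15 on d 16. This is a log2 change of 2.22 from d 2 to d 9 and of 3.69 from d 2 to d 16, or 12.9-fold, with a standard error of 0.41.

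C1qa probe 1 had log2 signals of 4.03, 3.66 and 3.73 in d 2 whey, where dam 3 alone was well above background. On d 9 it had 6.57, 5.87 and 5.10, and on d 16 it had 7.22, 6.89 and 7.22. The days did not overlap, and the log2 changes from d 2 were 2.04 to d 9 and 3.31 to d 16, with a standard error of 0.34. C1qa probe 2 was not well above background on any d 2 array, where it had 1.17, 1.14 and 2.10. It had 5.36, 4.62 and 4.10 on d 9 and 6.36, 5.52 and 6.04 on d 16. Its d 2 values are a ceiling, so it was at least 5.10-fold higher on d 9 and at least 12.4-fold higher on d 16, counted on each d 2 array from the higher of its own signal and the lowest signal of any probe well above background. Both probes of C1qa thus stood in the same order of days.

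C1qc was close to background, and neither of its probes stood well above it on d 2. Probe 1 had 1.40, 2.91 and 2.90 on d 2, 4.56, 3.99 and 3.24 on d 9, and 5.21, 4.82 and 5.39 on d 16. It was at least 1.85-fold higher on d 9 and at least 4.29-fold higher on d 16. Probe 2, in the collagen-like stretch, had 2.20, 1.81 and 2.67 on d 2, 3.39, 3.00 and 2.96 on d 9, and 4.11, 3.32 and 4.30 on d 16. Its bounds were smaller, at least 1.43-fold on d 9 and at least 2.48-fold on d 16, and its d 9 and d 16 values overlapped.

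**Figure D1:**
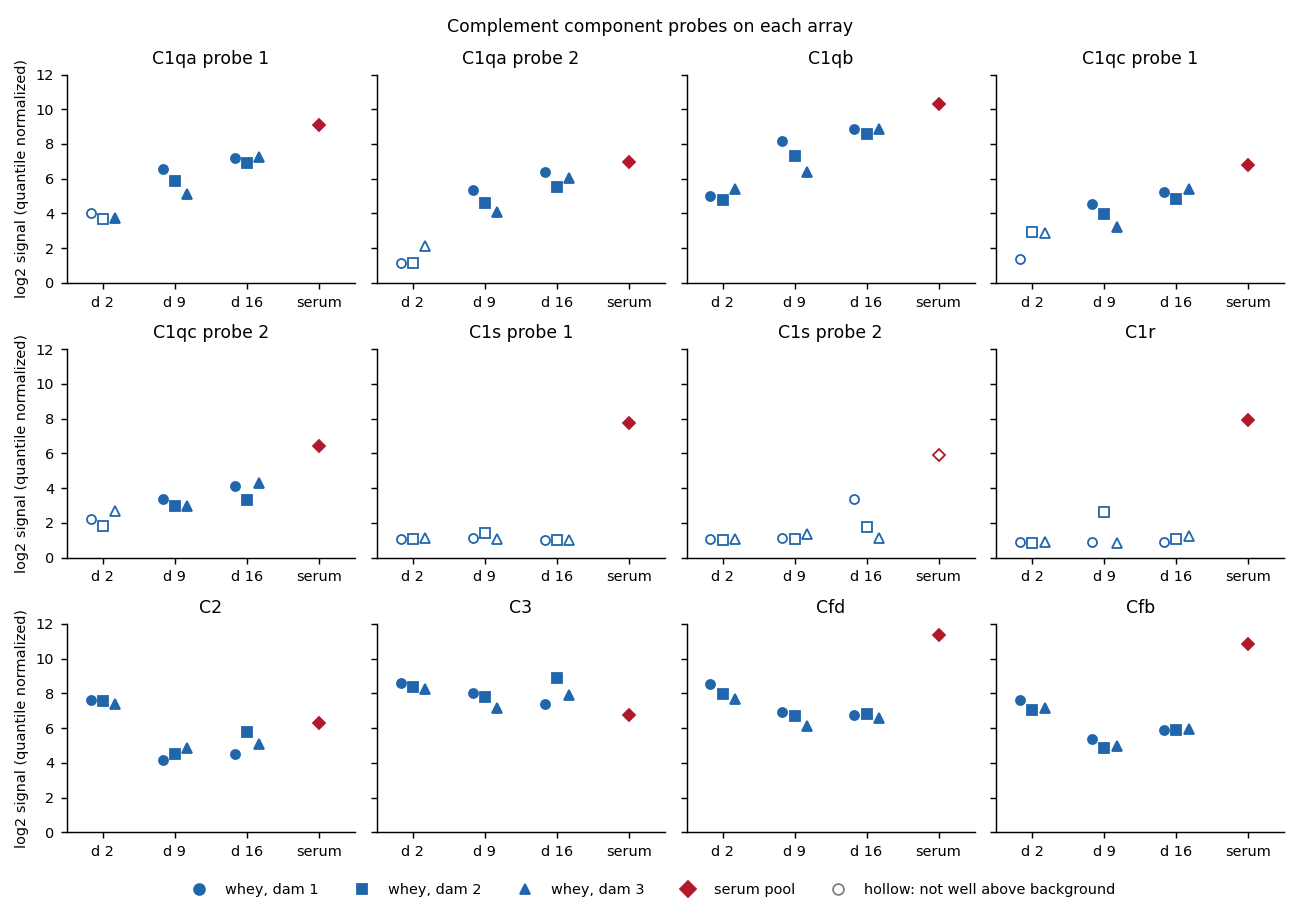
Log2 signal after quantile normalization (vertical axis) of the 12 complement probes on each array, by day of whey and for serum (horizontal axis). Blue symbols are dams, red diamonds the serum pool, and hollow symbols are not well above background. The 5 C1q panels climb from d 2 to d 16, C2, Cfd and Cfb stand highest in whey on d 2, and C1s and C1r are hollow in whey throughout.

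After quantile normalization every C1q probe was, within each dam, higher on d 9 than on d 2 and higher on d 16 than on d 9. The size of the steps differed among dams. For C1qb the step from d 2 to d 9 was 3.16 in dam 1, 2.54 in dam 2 and 0.95 in dam 3, and the step from d 9 to d 16 was 0.69, 1.27 and 2.47 in the same order. On d 9 all 5 probes ran from dam 1 down to dam 3. The overall brightness of these d 9 arrays ran the other way, with a 75th percentile of 21.2, 41.8 and 83.2 in dams 1, 2 and 3. Before any scaling C1qb had signals of 269.8, 308.8 and 323.0 on d 9, so the order of dams on d 9 goes with the normalization, and its part in that order was not tested. Unscaled C1qb signals were 16.7, 23.1 and 52.2 on d 2 and 427, 692 and 683 on d 16, again without overlap among the days. Scaled to 8 spike-in probes, C1qb had log2 signals of 4.09, 4.45 and 5.56 on d 2, 8.43, 8.29 and 8.62 on d 9, and 8.59, 9.24 and 9.27 on d 16. On that scale d 2 stayed apart from both later days, but d 9 and d 16 overlapped, and their mean difference was 0.59 in place of 1.48. C1qc probe 2 went from 4.74 on d 9 to 4.65 on d 16 in dam 3 on that scale, the single step downward among the C1q probes.

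The share of probes behind such a pattern is large in these data. Day means climbed from d 2 to d 9 and again to d 16 for 4007 of the 16848 tested probes (23.8%). Between d 2 and d 16, 25.9% of tested probes had higher values on d 16 without overlap, and between d 2 and d 9 24.1% had higher values on d 9. The C1q chains were chosen on this contrast, and nothing is read from their count.

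Cd74, the invariant chain of antigen presentation, had the day pattern most like the mean of the C1q chains, with a Pearson r of 0.999 over the 9 whey arrays and the same rank order of arrays. It was the closest of 7484 probes compared, all with a gene symbol and well above background on every d 9 and d 16 whey array. Signal above background on d 2 was not required, so the pool was drawn from the days on which C1q was higher. Coro1a, an actin-binding protein of blood cells, followed with 0.996, then Fxyd2 (0.995), Tyw1 (0.992), Aif1 (0.991), Tmem179b (0.991), Folr2 (0.991), Samd9l (0.989), Ppp2cb (0.989) and Usp12 (0.985). Samd9l was above background on 0 of the 3 d 2 arrays, and Cd74, Fxyd2, Tyw1 and Folr2 on 2, so part of their pattern is d 2 background. The 9 arrays share 3 dams and 3 days, and any probe that climbs with the day scores high on this measure. The mean log2 signal of Cd74 was 3.79 on d 2, 5.84 on d 9 and 7.20 on d 16.

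Markers of macrophages moved with the C1q chains in part. The summed signal of 15 macrophage markers was 916 to 1013 on d 2, 931 to 1882 on d 9 and 2929 to 3830 on d 16. Of the 8 tested, Cd68, Aif1, Tyrobp and Fcer1g rose from d 2 to d 9 and Cd14, a lipopolysaccharide co-receptor, fell, against 11.2% and 6.46% of all tested probes called higher and lower. From d 2 to d 16, where 16.0% and 12.5% were called, these 4 and Ctss rose and Cd14 fell. Cd68 was above background on 0 d 2 arrays and detected only through later days, so nothing is read from its calls. It was at least 2.46-fold higher on d 9 and at least 4.99-fold on d 16. Laptm5 and Adgre1 were called on neither, with means of 8.24, 7.58 and 8.46 and of 2.32, 1.92 and 1.96 on d 2, d 9 and d 16. Fcer1g, the common gamma chain of Fc receptors, showed the largest change of the list, 3.72 (standard error 0.39, adjusted p = 0.000816). Cd14 fell by 1.88 (adjusted p = 0.00952). Csf1r, Cd163, Msr1, Marco, Mpeg1 and Siglec1, which mark macrophages, were not well above background on any whey array. Lymphocyte markers summed to 63.2 to 99.2 on d 2 and 146 to 202 on d 16, with Cd3d and Cd3g called higher. Neutrophil markers summed to 67.9 to 86.8 on d 2 and 90.7 to 441 on d 16, with 1 of 4 tested called higher. Mpo, a granule enzyme on the neutrophil list, was too dim to be tested and went the other way, above background on all d 2 arrays and on none of d 16, at least 5.91-fold lower. The part of these cell types in the C1q signals was not tested.

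**Figure D2:**
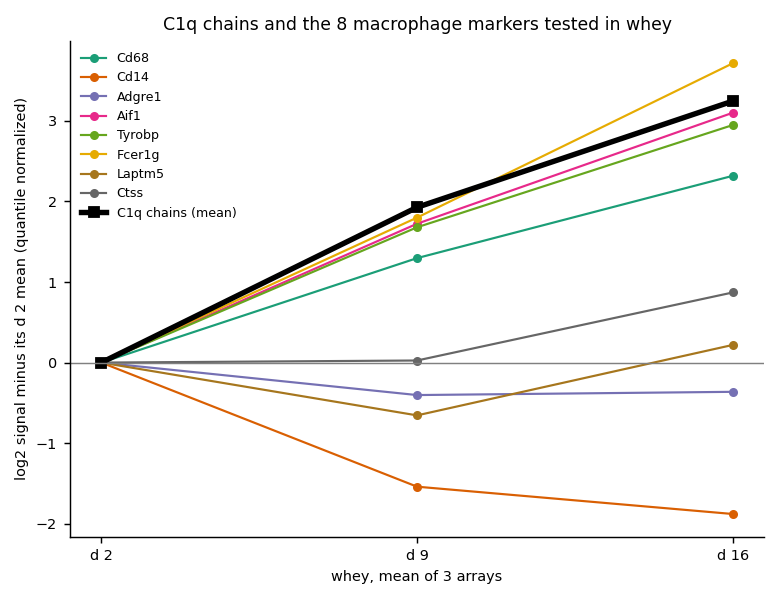
Mean log2 signal of 3 whey arrays per day minus its own d 2 mean (vertical axis) for the mean of the 3 C1q chains (black squares) and for the 8 macrophage markers tested in whey (coloured circles). Aif1, Tyrobp and Fcer1g run close to the C1q line, while Cd14 and Adgre1 lie below 0, as does Laptm5 on d 9. Ctss is nearly level from d 2 to d 9. Cd68 was not above background on any d 2 array.

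C1r and C1s, the proteases that travel with C1q, were not detected in whey on any day. C1r had log2 signals of 0.89, 0.86 and 0.90 on d 2, 0.90, 2.65 and 0.87 on d 9, and 0.88, 1.08 and 1.25 on d 16. None of these arrays was well above background. C1s probe 1 stayed between 0.99 and 1.40 and C1s probe 2 between 1.00 and 3.37 on the whey arrays, again never above background. On the serum array C1r had 7.92 and C1s probe 1 had 7.77, both well above background, so these probes could give signal. C1s probe 2 was not well above background in serum either, so its low whey signals do not bear on C1s. Absence from whey cannot be stated from this, only that the signals did not clear the background of these arrays.

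C2, the member of the classical pathway that cuts C3, fell as the C1q chains were higher. Its log2 signals were 7.64, 7.57 and 7.38 on d 2, 4.19, 4.49 and 4.84 on d 9, and 4.49, 5.80 and 5.10 on d 16, all well above background. Every d 2 array was above every later array, and d 9 and d 16 overlapped. The log2 change from d 2 to d 9 was -3.03 (standard error 0.32), or 8.16-fold lower, with an adjusted p of 0.00236 in limma. From d 2 to d 16 it was -2.40, or 5.29-fold lower (adjusted p = 0.00209). All 3 dams fell on each of these. The change from d 9 to d 16 was 0.63 (adjusted p = 0.339).

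Factor B, the counterpart of C2 in the alternative pathway, fell as well. Cfb had 7.61, 7.05 and 7.16 on d 2, 5.35, 4.86 and 5.00 on d 9, and 5.89, 5.90 and 5.96 on d 16. The 3 days did not overlap, with d 2 highest and d 9 lowest. It fell by 2.20 on the log2 scale from d 2 to d 9 (standard error 0.19, adjusted p = 0.00104), or 4.61-fold. From d 2 to d 16 it fell by 1.36 (adjusted p = 0.00231). The difference from d 9 to d 16, 0.85 upward in all 3 dams, had an adjusted p of 0.0767. It was called under 5 of 20 alternatives, among them leaving out d 2 of dam 1 (adjusted p = 0.0488), with adjusted p from 0.0296 to 0.965 over all 20.

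Factor D, the protease that activates factor B, fell too. Cfd had 8.53, 7.98 and 7.69 on d 2, 6.95, 6.68 and 6.14 on d 9, and 6.73, 6.80 and 6.61 on d 16. All later arrays lay below all d 2 arrays. The log2 change was -1.48 to d 9 (standard error 0.26, adjusted p = 0.0108) and -1.35 to d 16 (adjusted p = 0.00874), that is 2.78-fold and 2.55-fold lower. With the slide as a fixed block the change to d 9 was -1.10 with an adjusted p of 0.145, and by the Tukey-Kramer test the adjusted p was 0.0547. Adiponectin (Adipoq), Plin1, Lep and Pparg, defining genes of fat cells, were not well above background on any whey array. The other 3 of the 7 fat cell markers, Fabp4, Cidec and Lipe, were tested, and none was called between any days. The 7 summed to 40.5 to 48.4 on d 2, 41.1 to 50.4 on d 9 and 27.3 to 46.9 on d 16. Only 2 of the 7 were above background on any d 2 array, so these sums are mostly signal near background. The part of fat cells in the Cfd signals was not tested.

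C3, on which both pathways converge, did not pass the test between any days. Its log2 signals were 8.60, 8.37 and 8.26 on d 2, 8.03, 7.80 and 7.16 on d 9, and 7.38, 8.90 and 7.88 on d 16. All d 9 values were below all d 2 values, while d 16 spanned both. The changes were -0.75 to d 9 (standard error 0.39, adjusted p = 0.214) and -0.35 to d 16 (adjusted p = 0.528). Dam 2 went up from d 9 to d 16 by 1.10 and dam 1 went down by 0.64.

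Of the 4 members outside C1q that could be tested, 3 (C2, Cfb and Cfd) were lower and 0 higher on d 9, where 6.46% of tested probes were called lower. The same 3 were lower on d 16, where 12.5% were called lower. From d 9 to d 16 limma called 0 of the 4, with 1.42% of tested probes called in either direction. Cfb had an unadjusted p under 0.05 there, as did 18.7% of tested probes, and the Tukey-Kramer test called 0 probes on the whole array. Without overlap, all 4 were lower on d 9 and the same 3 on d 16, which held for 14.7% and 22.3% of tested probes. Cfb was higher on d 16 than on d 9 without overlap, as were 11.8% of tested probes. None of the 4 had a higher mean on a later day than on d 2 after quantile normalization, while C3 did on the spike-in scale. The comparisons with d 9 and with d 16 share the d 2 arrays and are not independent. Leaving out any 1 of the 9 whey arrays kept the counts of 3.

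**Figure D3:**
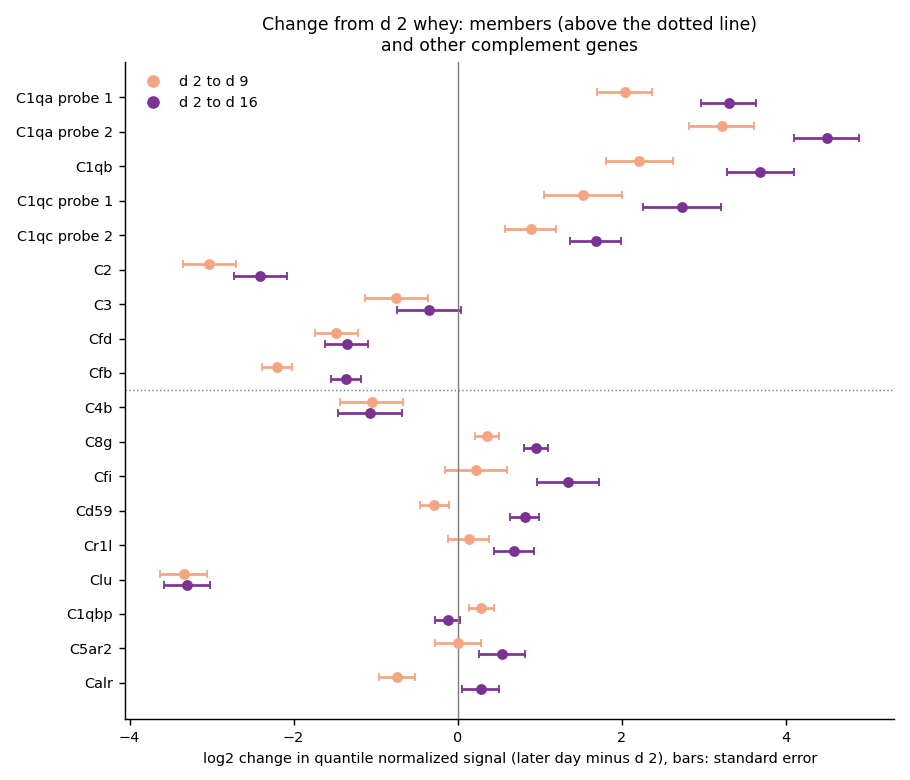
Log2 change in quantile normalized signal from d 2 to d 9 (orange) and from d 2 to d 16 (purple), with standard errors, for the 9 tested complement probes (above the dotted line) and the 9 other complement genes tested. C1q probes lie right of 0, and C2, Cfd, Cfb and Clu lie left of it. C1qa probe 2 and both C1qc probes were not above background on d 2, so their bars are not measured changes.

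These falls depend on how the arrays are brought to one scale. Scaled to 8 spike-in probes, the median log2 change over all tested probes against d 2 was itself 1.52 on d 9 and 0.60 on d 16, against 0.11 and 0.04 after quantile normalization. On that scale C2 changed by -1.65 to d 9 (adjusted p = 0.0492) and by -1.82 to d 16 (adjusted p = 0.126). Cfb changed by -0.80 and -0.76 (adjusted p = 0.299 and 0.611), and Cfd by -0.02 and -0.77 (adjusted p = 0.984 and 0.605). C3 turned upward, to 0.73 and 0.21, with no call. The C1q chains stayed higher, C1qb by 3.75 on d 9 and 4.33 on d 16. Relative to the median of tested probes on the spike-in scale, C2 changed by -3.17 and -2.42, Cfb by -2.32 and -1.36, Cfd by -1.53 and -1.37, and C1qb by 2.23 and 3.73. The calls of Cfb and Cfd, and that of C2 on d 16, were made on the 4 scalings to the bulk of probes and not on the spike-in scale.

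**Figure D4:**
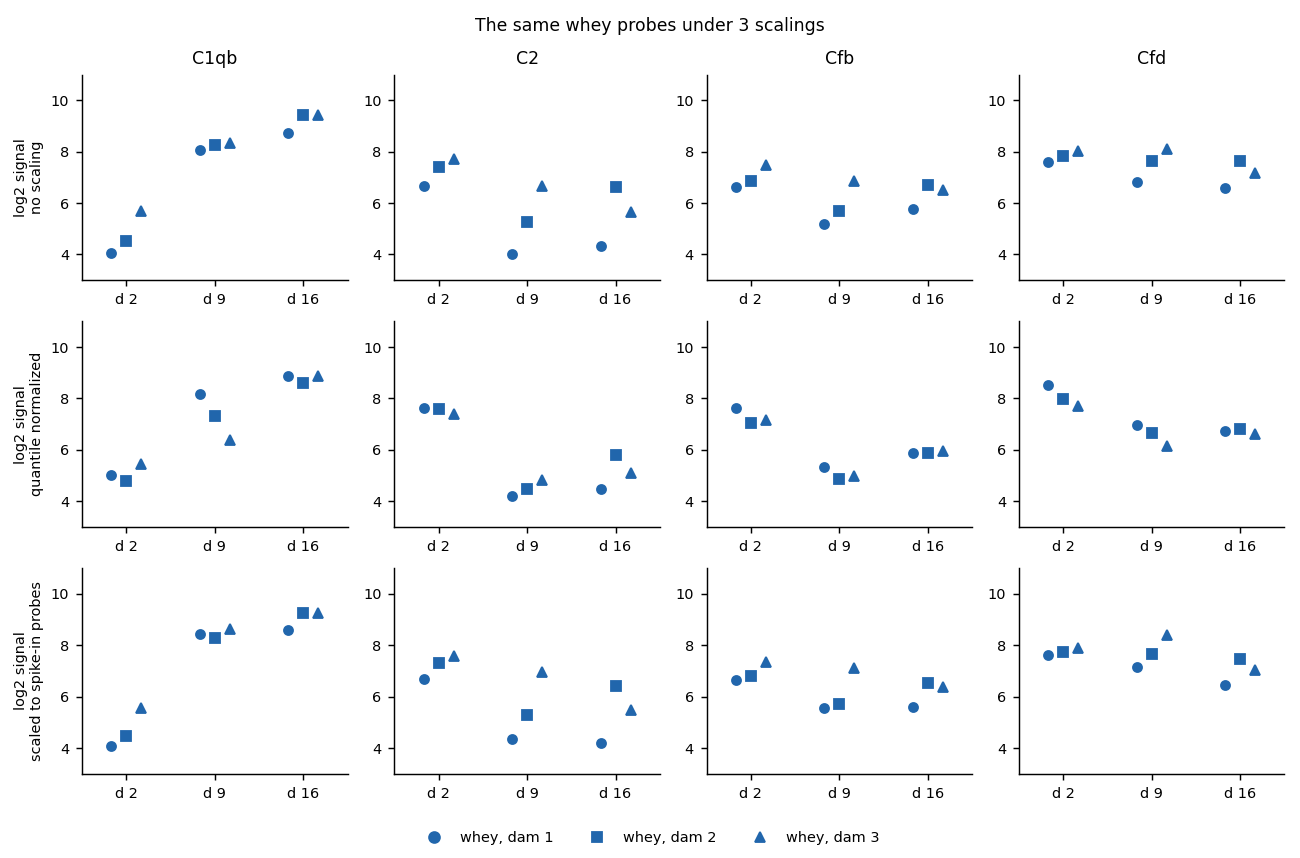
Log2 signal of C1qb, C2, Cfb and Cfd on the 9 whey arrays (vertical axis) by day (horizontal axis), without scaling (top row), after quantile normalization (middle row) and scaled to spike-in probes (bottom row). C1qb days stay apart in the upper rows, while in the bottom row d 2 is apart and d 9 and d 16 overlap. C2 lies below all d 2 values on d 9 and d 16 in the middle row, and in the outer rows too except for dam 3 on d 9, which reaches the d 2 range.

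Slides bear on these comparisons. All d 16 arrays were on slide 3 and no d 2 array was, so day and slide cannot be told apart for d 16. For d 9 the comparison can be made within slide 2, which held d 2 of dam 3 and all d 9 arrays. There C1qb was higher on d 9 by 1.86 and C1qa probe 1 by 2.12. C1qa probe 2 and both C1qc probes were not above background on that d 2 array. C2 was lower by 2.88 in log2 signal, Cfb by 2.09, Cfd by 1.10 and C3 by 0.59, as single differences from 1 d 2 array. With the slide as a fixed block C2 and Cfb stayed called to d 9 (adjusted p = 0.0320 and 0.0141).

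Around the day means the members did not all vary together from array to array. Deviations from the day mean of C1qa probe 1 and C1qb had a Pearson r of 0.909 over the 9 whey arrays, and those of Cfd and Cfb one of 0.692. C2 and Cfb, whose day means fell together, had -0.107, and C2 against C1qb had -0.574. These are descriptions over 9 arrays that share slides, dams and a common normalization.

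Genes next to the members on the chromosome were counted by the same test. Within 200 kilobases of the C1q genes 6 other probes were placed and 1 was detected in whey, an expressed sequence tag listed as AI411618 at chr5:155656501-155656560 on the plus strand, opposite to C1qc and 77 bases from its probe 1. It had 5.44, 5.00 and 2.50 on d 2, where dam 3 was not above background, and 0.84 to 2.32 on the 6 later arrays, none of which was above background. It was at least 6.05-fold lower on d 9 and at least 5.34-fold lower on d 16, which rests on d 2 of dams 1 and 2. It was detected through these arrays alone. The limma calls (adjusted p = 0.0281 and 0.0231) belong to changes of -3.14 and -2.97 that use signals at background, and nothing is read from them. Around C1r and C1s 11 neighbours were tested, with 1 called higher and 2 lower on each later day. Around C2 and Cfb 26 neighbours were tested, of which 1 was called higher and 0 lower to d 9, and 4 higher and 1 lower to d 16. Around Cfd 25 were tested, with 0 higher and 5 lower to d 9, and 3 higher and 6 lower to d 16. Over the whole array 11.2% of tested probes were called higher and 6.46% lower to d 9, and 16.0% and 12.5% to d 16.

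Most of the rest of the complement system did not pass the detection rule in whey. From a list of 47 other complement genes, 40 had a probe and 9 were tested. Of the 40, 15 were above background on some whey array and 10 on the serum array. All 8 lectins, ficolins and their proteases with a probe (such as Mbl1, Mbl2, Fcnb and Masp2) failed detection, as did C5, C6, C8a, C9 and properdin (Cfp) and the receptors C5ar1, Itgam, Itgb2, Cr2 and Vsig4. None of these was above background in serum either, so their low signals are not particular to whey. The receptor C3ar1 was above background on all 9 whey arrays but too dim to be tested. From d 2 to d 9, 0 of the 9 were called higher and 1 lower, against 11.2% and 6.46% of all tested probes. From d 2 to d 16, 3 were higher and 1 was lower, against 16.0% and 12.5%. The median log2 change of the 9 was 0.00 to d 9 and 0.54 to d 16, beside 0.11 and 0.04 over all tested probes.

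Clusterin (Clu), a chaperone that keeps the terminal complex out of membranes, had the largest fall of the 9. It had 7.63, 7.35 and 6.75 on d 2, 4.02, 4.198 and 3.50 on d 9, and 4.09, 4.15 and 3.61 on d 16, with d 2 apart from both later days. Its log2 change was -3.34 to d 9 (standard error 0.28, adjusted p = 0.00105) and -3.30 to d 16 (adjusted p = 0.000461), and these calls held under all alternatives run, spike-in scaling included.

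Factor I (Cfi), the protease that inactivates C3b and C4b, was higher on d 16. It had 5.88, 5.94 and 4.72 on d 2, 5.52, 5.94 and 5.74 on d 9, and 6.83, 7.39 and 6.34 on d 16. It rose by 1.34 from d 2 to d 16 (standard error 0.38, adjusted p = 0.0332), and without d 2 of dam 3 the change was 0.95 (adjusted p = 0.0602). It also lost the call without d 16 of dam 1 (adjusted p = 0.0761) or of dam 2 (adjusted p = 0.101), and over 20 alternatives the adjusted p ran from 0.00996 to 0.143. Cd59, which blocks the membrane attack complex, had 8.26, 8.30 and 8.09 on d 2, 8.12, 8.15 and 7.53 on d 9, and 9.07, 8.98 and 9.05 on d 16. It rose by 0.82 from d 2 to d 16 (adjusted p = 0.0138) and by 1.10 from d 9 to d 16 (adjusted p = 0.0360). With the dam as a block the second difference was not called (adjusted p = 0.0603), nor was it when any 1 of 7 arrays, all but d 2 of dam 1 and d 9 of dam 3, was left out (adjusted p from 0.0527 to 0.139). C8g, a chain of the terminal component C8, had 4.32, 4.64 and 4.32 on d 2, 4.67, 4.80 and 4.90 on d 9, and 5.29, 5.28 and 5.57 on d 16. It rose by 0.96 to d 16 (standard error 0.15, adjusted p = 0.00341). On the spike-in scale Cfi, Cd59 and C8g changed by 2.01, 1.40 and 1.59 to d 16, with none called. The Tukey-Kramer test called C8g but neither Cfi nor Cd59 to d 16 (adjusted p = 0.143 and 0.0515).

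The partner of C2 in the C3-cutting enzyme, C4b, was near background, above it on 3, 1 and 2 arrays of d 2, d 9 and d 16. Its log2 signals were 4.66, 4.46 and 3.41 on d 2, 3.21, 2.53 and 3.65 on d 9, and 3.28, 2.83 and 3.22 on d 16. The changes of -1.05 to d 9 and -1.07 to d 16 had adjusted p of 0.0985 and 0.0738. The remaining tested genes, Cr1l, C1qbp, C5ar2 (listed as Gpr77) and Calr, were not called between any days, with changes between -0.74 and 1.02 and adjusted p from 0.0580 to 0.993.

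After quantile normalization, serum stood above whey for most complement members. By the first probe of each gene, 7 of the 9 members were over 4-fold higher in serum than in the mean of the 9 whey arrays, and 0 were over 4-fold higher in whey. Among 21177 probes above background on some array, 15.8% were over 4-fold higher in serum and 27.2% in whey. C1r was at least 62.2-fold and C1s probe 1 at least 61.8-fold higher in serum. Cfb had 10.84 in serum against 6.09 ± 0.98 (SD, n = 9) in whey, 26.9-fold higher, and Cfd 11.34 against 7.12 ± 0.77, 18.6-fold higher. C1qb had 10.33 in serum against 7.05 ± 1.68 in whey, 9.70-fold higher, and was still above the d 16 mean of 8.77. C2, at 6.31 in serum, lay within its range in whey of 4.19 to 7.64. C3 was the only member below whey, at 6.74 against 8.04 ± 0.56, so that whey was 2.47-fold higher.

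The serum comparison turns with the scaling as well. With d 16 whey in place of all whey arrays, 4 members were over 4-fold higher in serum. Scaled to the spike-in probes, 2 were (C1r and C1s), and C2 and C3 were 6.74-fold and 27.7-fold higher in whey. On that scale C1qb was 0.34 and C1qa probe 1 0.19 log2 units higher in whey than in serum, the opposite of the sign after quantile normalization. The order of Cfb, Cfd, C1r and C1s, higher in serum, and of C3, higher in whey, was kept on all 4 scalings. Serum was 2.30-fold to 26.9-fold higher for Cfb and 1.63-fold to 18.6-fold for Cfd, and whey was higher by 0.97 to 4.79 log2 units for C3. C1r was at least 4.52-fold to at least 62.2-fold higher in serum and C1s probe 1 at least 3.88-fold to at least 61.8-fold. Liver markers were near background in whey, 9 of 10 never above it and the sum between 22.9 and 37.0, against 766 in serum. Erythroid and platelet markers summed to at most 34.1 and 68.9 in whey and to 37322 and 90420.1 in serum. Their part in the serum levels of complement transcripts was not tested.

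**Figure D5:**
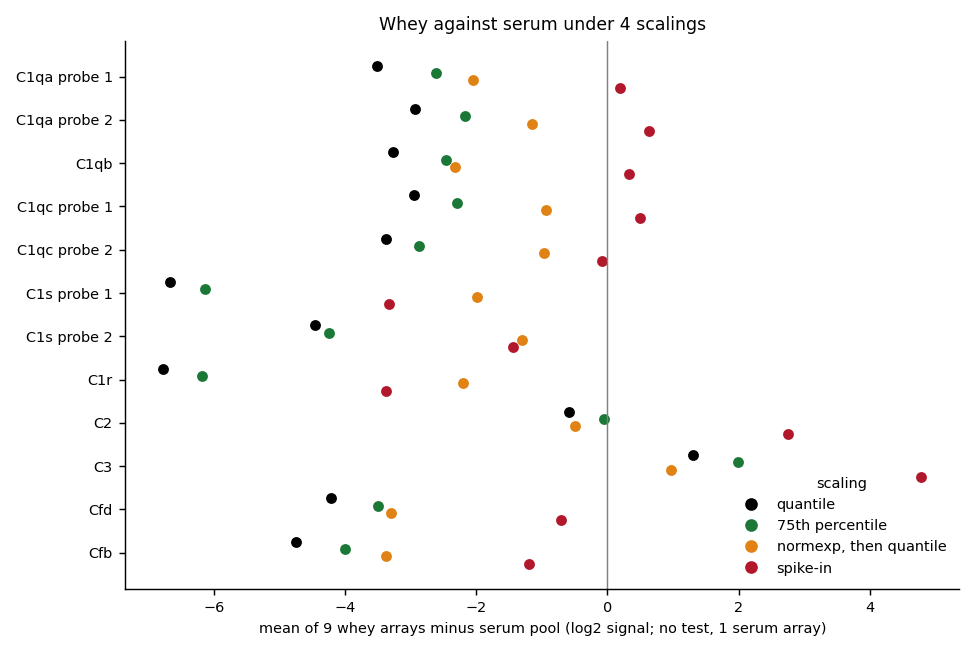
Mean log2 signal of the 9 whey arrays minus the serum pool (horizontal axis) for each complement probe (vertical axis) under 4 scalings of the arrays, with no error because serum has 1 array. C3 lies right of 0 and C1r, C1s, Cfd and Cfb left of it under all 4, while 4 of the 5 C1q probes change side under spike-in scaling.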

How the data were processed

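The authors hybridized cyanine 3 labelled RNA to 1-colour Agilent Whole Rat Genome arrays, and the deposited spot values are intensity values from Agilent Feature Extraction 9.5.3.1, background subtracted and not normalized between arrays. A deposited flag column (other values, 0 or 1) marks spots well above background. A table of all samples with 10 columns matching no label was not used.

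Log2 intensity was quantile normalized, outlier spots were left out and spots of a probe averaged. Days were compared with limma 3.58.1 in R 4.3.3 on the 9 whey arrays (two-sided, Benjamini-Hochberg over 16848 probes, threshold 0.05). Adjusted p-values are those of limma where no other test is given. Dam numbers in the sample titles pair the days, since the animals are the same. The main fit used the day alone and left this pairing out, and an alternative fit took the dam as a block. Deviations of arrays of the same dam correlated at -0.02 to 0.22. Bounds replace folds for days not above background. Serum entered no test. Alternatives were other scalings, filters, blocks, tests and leaving out each array.

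Members, gene lists and tests were chosen with earlier results of these data known. All member probes are named, other complement genes when called on any comparison, likeness by the top 10 genes, and neighbours within 200 kilobases. Each other complement gene and cell marker was read by a single probe, the one well above background on most arrays, or the brighter when tied. Further probes of such genes are not reported. Sequences come from the array files. The number of arrays, not read depth, limits precision. The p-values cover the spread among 3 dams.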

Additional observations from a re-analysis of the deposited data

How the results depend on the processing

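Precision is limited by 3 arrays a day, and C1qa probe 2 and both C1qc probes were at background on d 2. Under the scalings, filters, blocks and tests run, C2, Cfb and Cfd kept their direction from d 2 to d 9 and to d 16, though Cfd changed by only -0.02 to d 9 with spike-in scaling. All C1q probes had higher means on later days, but C1qc probe 2 differed by only 0.010 from d 2 to d 9 with normexp and by 0.12 from d 9 to d 16 with spike-in scaling. The members called from d 2 to d 9 numbered 3, but 1 with spike-in scaling, and those from d 2 to d 16 numbered 3, but 0 with it, while calls over the whole array went from 2975 to 6935 and from 4807 to 786. Cfd also lost its call to d 9 with the slide as a fixed block and by the Tukey-Kramer test, which lowered that count too. From d 9 to d 16 0 were called, but 1 (Cfb) with a minimum signal of 100, with probes above background on all whey arrays, with the slide as a random block and with an intensity trend, and 0 to 1 when single arrays were left out. Other complement genes called from d 2 to d 9 numbered 1, but 4 with spike-in scaling, and 2 with normexp, with a minimum signal of 100, with probes above background on all whey arrays, with the slide as a random block and with an intensity trend. They ranged from 1 to 3 when single arrays were left out, with 3 without d 2 of dam 3. From d 2 to d 16 they numbered 4, but 1 with spike-in scaling and 2 with the Tukey-Kramer test. From d 9 to d 16 they numbered 1 (Cd59), 4 with normexp, 3 with a minimum signal of 100, with probes above background on all whey arrays and with the slide as a random block, 2 with an intensity trend, and 0 with spike-in scaling, no filter on dim probes, the dam as a replicate block or the Tukey-Kramer test. They ranged from 0 to 1 when single arrays were left out. The paired fit with the dam as a block changed no other call named here. Members over 4-fold higher in serum numbered 7, 2 with spike-in scaling and 4 against d 16 whey, and those over 4-fold higher in whey 0, but 2 with spike-in scaling. Spike-in scaling reversed the whey minus serum difference of C1qa probe 1 (0.19), C1qa probe 2 (0.63), C1qb (0.34) and C1qc probe 1 (0.50), and C2 changed side too (from -0.59 to 2.75). The cause of these changes was not tested.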
